A study of Mus musculus with 2 samples.

Results

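The Dlk1-Meg3 domain is an imprinted region of mouse chromosome 12, described here over the 500 kb window chr12:110650001-111150000 of the mm9 build in steps of 20 kb. Its members are the cytosines that the second of 2 libraries listed inside this window at no more than 100 reads. They were 4486 of the 27435342 cytosines in that library's tables: 670 in CpG, 3038 in CHG and 778 in CHH context, where H is A, C or T. No listed site of the window was deeper than 100 reads. The study mapped DNA methylation by whole-genome bisulfite sequencing, which leaves methylated cytosine as C and turns unmethylated cytosine into a base read as T. There was 1 group and no treatment. Both libraries, labelled WT for wild type, came from the dentate gyrus of male C57Black6 mice aged 8 to 10 weeks, with the gyri of both sides dissected out. The dentate gyrus is the part of the hippocampus that holds the granule neurons together with interneurons, glia and vessels, so every level is an average over those cells.

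At an imprinted domain, a gene is read mainly from the copy inherited from 1 parent. Dlk1, a membrane protein related to the Notch ligands, Rtl1, a gene derived from a retrotransposon, and Dio3, an enzyme that inactivates thyroid hormone, are read mainly from the paternal copy. Meg3, Rian and Mirg, long non-coding RNAs that host microRNAs and small nucleolar RNAs, are read mainly from the maternal copy. The intergenic control region upstream of Meg3 is known to carry methylation on the paternal copy, so a level near 50% is what 1 methylated and 1 unmethylated copy would give at a site. Bisulfite reads do not tell the copies apart, and they do not separate methylcytosine from hydroxymethylcytosine, which is abundant in brain.

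In RefSeq's GRCm38.p6 annotation, the genes around the domain lie in the order Wars, Wdr25, Begain, Dlk1, Meg3, Rtl1, Rian, Mirg, Dio3 and Ppp2r5c. Between Meg3 and Dio3 that annotation lists 61 microRNA genes and 19 small nucleolar RNA genes. In it the starts of Dlk1 and Dio3 are more than 500 kb apart, so a window of this length that holds the start of one does not hold the start of the other. If the window holds the start of Dlk1, Dio3 starts to its right and may lie in the right flank of 1 Mb used for comparison. That flank may thus hold part of the imprinted genes, which was not checked in mm9. Shown here are RefSeq promoters of 300 bases, most of them upstream of the gene's start, for the paternally read Dlk1 and the maternally read Meg3 and Rian. They show how much CpG, written in capitals, each start offers to methylation.
Dlk1: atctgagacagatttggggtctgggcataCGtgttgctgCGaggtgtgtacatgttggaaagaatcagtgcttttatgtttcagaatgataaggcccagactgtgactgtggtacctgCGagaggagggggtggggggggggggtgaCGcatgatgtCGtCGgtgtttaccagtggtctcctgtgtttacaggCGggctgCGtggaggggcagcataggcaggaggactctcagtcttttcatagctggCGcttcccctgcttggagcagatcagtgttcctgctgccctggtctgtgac
Meg3: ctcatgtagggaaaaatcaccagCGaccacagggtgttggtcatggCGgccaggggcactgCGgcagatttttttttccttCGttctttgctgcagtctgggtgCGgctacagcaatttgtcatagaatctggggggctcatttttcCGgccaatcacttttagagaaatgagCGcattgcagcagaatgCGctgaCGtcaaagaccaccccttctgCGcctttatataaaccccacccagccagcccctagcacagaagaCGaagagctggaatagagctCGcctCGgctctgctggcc
Rian: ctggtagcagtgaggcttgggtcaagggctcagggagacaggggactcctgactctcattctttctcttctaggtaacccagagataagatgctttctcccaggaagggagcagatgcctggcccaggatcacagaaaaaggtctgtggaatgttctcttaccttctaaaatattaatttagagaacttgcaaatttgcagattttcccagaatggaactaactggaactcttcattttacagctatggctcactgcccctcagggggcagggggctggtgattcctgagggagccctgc
The Meg3 promoter shown, the first of 2 listed starts, held 13 CpG and the Dlk1 promoter 9, against a median of 7 over 32851 RefSeq promoters. The second Meg3 start held 1 CpG. The Rian promoter held 0 CpG, although 94.6% of promoters held at least 1. The motif TGACGTCA, the cAMP response element, which reads the same on both strands, stood at base 194 of the Meg3 window. It was in 1.79% of all promoters and in none of the Dlk1, Rian and second Meg3 windows. These sequences are of another build than the methylation tables, and sliding their cytosine pattern along the listed sites gave no single place for any of the 3. Levels are therefore given by mm9 position, never by gene. The intergenic control is taken as the 10 kb of chr12:110760001-110770000 and the Meg3 start as the 10 kb of chr12:110775001-110785000, and neither place was checked against an mm9 annotation.

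Most CpG sites of the domain were highly methylated. Their read-weighted level, methylated reads over all reads, was 79.6% (95% Clopper-Pearson interval 78.9 to 80.2%) over 15710 reads at 670 sites. The level was 76.2% in the flanks of 1 Mb on each side, with 75.8% in the left and 76.6% in the right flank, and 79.0% over all autosomes. The domain thus stood 3.31 percentage points above its flanks (interval 2.58 to 4.03, two-sided Fisher's exact test of the summed reads, adjusted p = 7.38e-18 over 4713 windows). Of all 500 kb windows tested the same way, 78.8% were called, and 27.3% differed from their own flanks by at least as much in either direction. The lowest 20 kb step was at 28.1% in the left flank (1160 reads), 30.2% in the right flank (804 reads) and 49.7% in the domain. The difference without these low flank steps was not tested. All of this comes from 1 library, so there is no replicate error. The intervals and p-values reflect counting alone and treat every count as independent. A read that covers several neighbouring sites is counted at each of them, so intervals may be too narrow and p-values too small. How PCR copies were handled is not given in the sources used here, so the reads may not all be separate molecules.

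Classed by level, 503 of the 670 CpG sites (75.1%) were above 70%, 130 (19.4%) were partly methylated, which here means 30 to 70%, and 37 (5.52%) were below 30%. The partly methylated share was 17.6% in the left flank, 17.3% in the right flank and 16.9% over all autosomal CpG sites. The domain's interval of 16.5 to 22.6% holds all 3 of those values. Sites below 30% made up 10.6% of the left flank, 9.98% of the right flank and 7.39% of autosomal sites. Little-methylated sites were thus a smaller share of the domain than of either flank, a difference that was not tested. Partly methylated sites and the other sites of the domain had the same median depth of 22 reads. A site with 11 of 22 reads methylated has an interval of 28.2 to 71.8%, so a single site near 50% is known only coarsely.

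**Figure D1:**
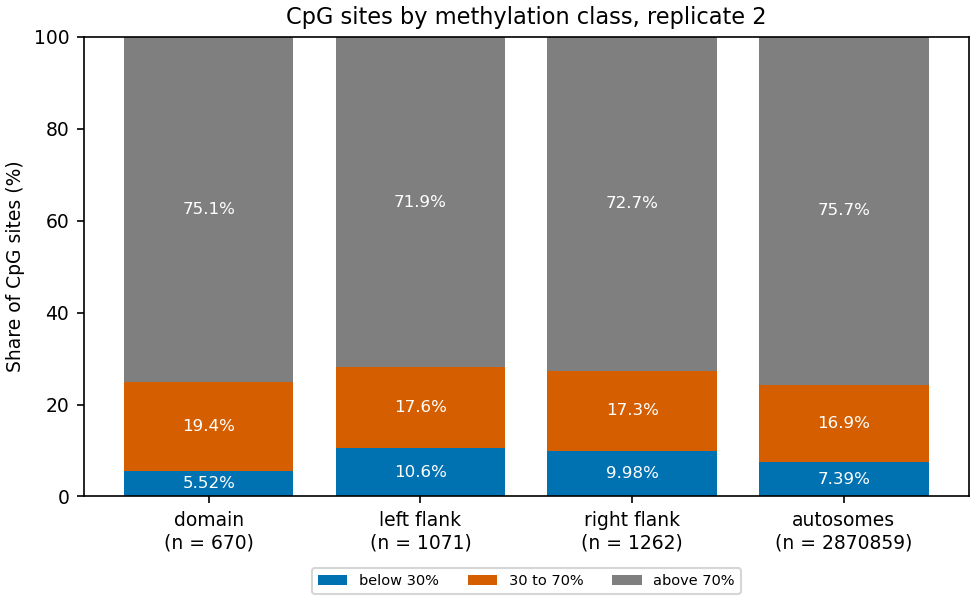
Share of CpG sites (percent of sites, vertical axis) below 30%, at 30 to 70% and above 70% methylation in the domain, the left flank, the right flank and all autosomes, with the number of sites under each bar. The domain has 5.52% of its sites below 30%, against 10.6% and 9.98% in the flanks.

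Along the domain, the CpG level changed sharply between neighbouring 20 kb steps. The lowest step was 49.7% and the highest 91.8%, with a median of 82.2% over the 25 steps. Against the autosomal level, 13 of 25 steps were called by an exact binomial test at an adjusted p under 0.05, 4 of them lower and 9 higher. Over all autosomal steps 66.8% were called. In the flanks the same test called 32 of 50 left steps, 14 of them lower, and 30 of 50 right steps, 17 of them lower. Steps under 60% numbered 3 of 25 in the domain, 4 of 50 in the left flank and 3 of 50 in the right flank, and were 4.87% of autosomal steps. In blocks of 100 kb the domain ran at 72.8%, 70.7%, 80.8%, 86.4% and 85.7% from left to right, so the low steps were on its left side.

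**Figure D2:**
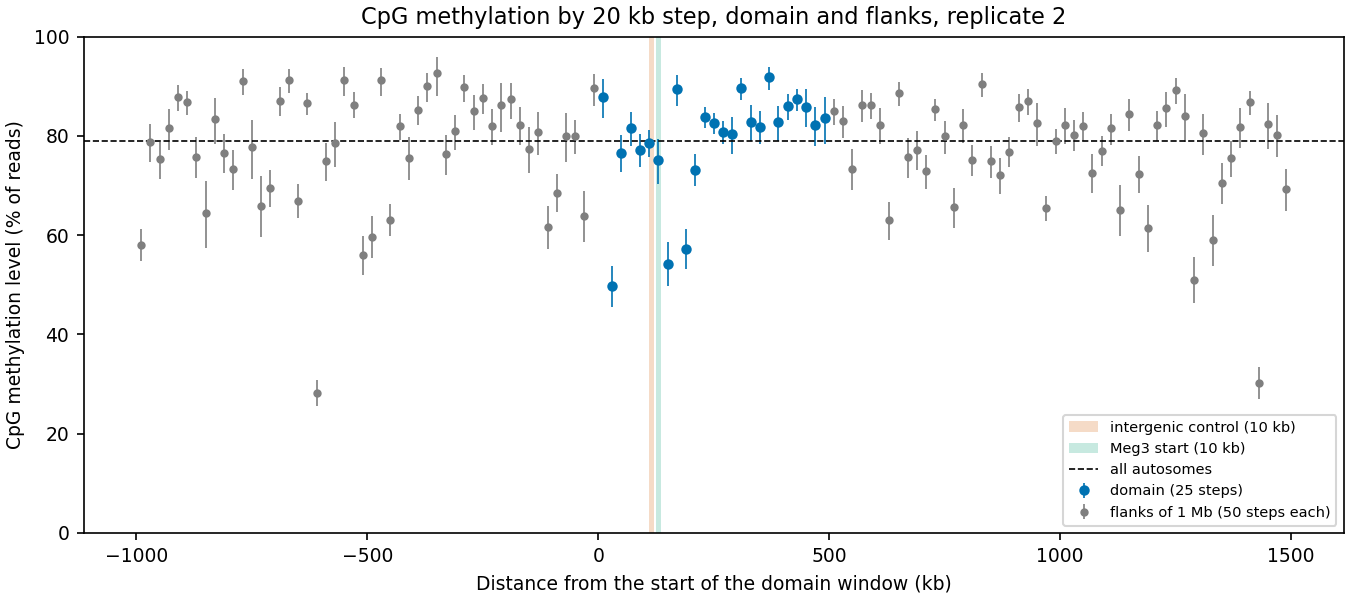
CpG methylation (percent of reads, vertical axis) of each 20 kb step against its distance from the start of the domain window (kb), for the 25 steps of the domain and 50 steps of each flank. Points are read-weighted levels with 95% Clopper-Pearson intervals and the dashed line is the autosomal level of 79.0%. The 3 domain steps between 49.7% and 57.2% stand below the rest of the domain, and steps as low also occur in both flanks.

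The 3 lowest steps held 74 CpG sites, of which 30 were partly methylated, 21 were below 30% and 23 were above 70%. In the other 22 steps, 100 of 596 sites were partly methylated and 16 were below 30%. These steps were picked for their level, so these counts describe them and are not tested. A step level near 50% came from different mixtures of sites in the 3 steps.

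The first low step, chr12:110670001-110690000, had 295 of 594 reads methylated, 49.7% (45.6 to 53.8%, exact adjusted p = 3.63e-54 against the autosomal level). Only 6 of its 27 sites were partly methylated, while 10 were below 30% and 11 above 70%. Sites with few or no methylated reads and highly methylated sites both lay in this step. Position 110679663 had 0 of 21 reads methylated, and 110683041 and 110683077 each had 19 of 20. At its right end 3 sites at 110687849 to 110688743 had 1 of 20, 0 of 21 and 1 of 25 reads methylated. From 110688758 to 110697060, across the border with the next step, 7 listed sites in a row were partly methylated, at 30% to 61.9% each and 46.7% together.

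The step chr12:110790001-110810000, to the right of the place of the Meg3 start, was at 54.2% (274 of 506 reads, interval 49.7 to 58.6%, exact adjusted p = 4.86e-34). Here 11 of 22 sites were partly methylated, 6 were below 30% and 5 above 70%. Low sites stood side by side at 110798697 to 110798919, with 4 of 23, 6 of 26 and 6 of 21 reads methylated. They were followed within 2 kb by 4 partly methylated sites in a row at 110800051 to 110801786, with 14 of 24, 11 of 25, 14 of 20 and 12 of 22 reads methylated. The change at the right edge was abrupt: the last of these sites, at 54.5%, lay next to 110801817, where 19 of 21 reads were methylated. From that site to 110833677, all 21 listed CpG sites were above 70%, with 89.6% of their reads methylated. The step chr12:110810001-110830000, which lies wholly inside this stretch, was at 89.5% with no partly methylated site among 17.

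The third low step, chr12:110830001-110850000, was at 57.2% (333 of 582 reads, interval 53.1 to 61.3%, exact adjusted p = 1.13e-30), with 13 of 25 sites partly methylated. High and low sites were mixed in its left part, with 41 of 41 reads methylated at 110835640, 6 of 24 at 110836976 and 4 of 20 at 110837098. The 5 kb of chr12:110835001-110840000 were at 76.0%, and those of chr12:110840001-110845000 at 55%. Within 806 bases, from 110843869 to 110844674, 7 listed sites in a row were partly methylated. They had 13 of 20, 14 of 21, 10 of 20, 13 of 20, 7 of 20, 10 of 22 and 7 of 23 reads methylated, 50.7% together (42.3 to 59.0%). Of the 7 runs of at least 4 such sites in the domain, this one and the first one, which spans 8303 bases, held the most sites. Directly after it, 110845241 and 110845262 had 0 of 22 and 2 of 21 reads methylated. The step to its right, chr12:110850001-110870000, was at 73.2% and was the last step called lower. At a minimum of 30 reads hardly any of these sites were left: the first low step had none, chr12:110790001-110810000 had 1 site at 93.3%, and chr12:110830001-110850000 had 3 sites at 86.5%.

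**Figure D3:**
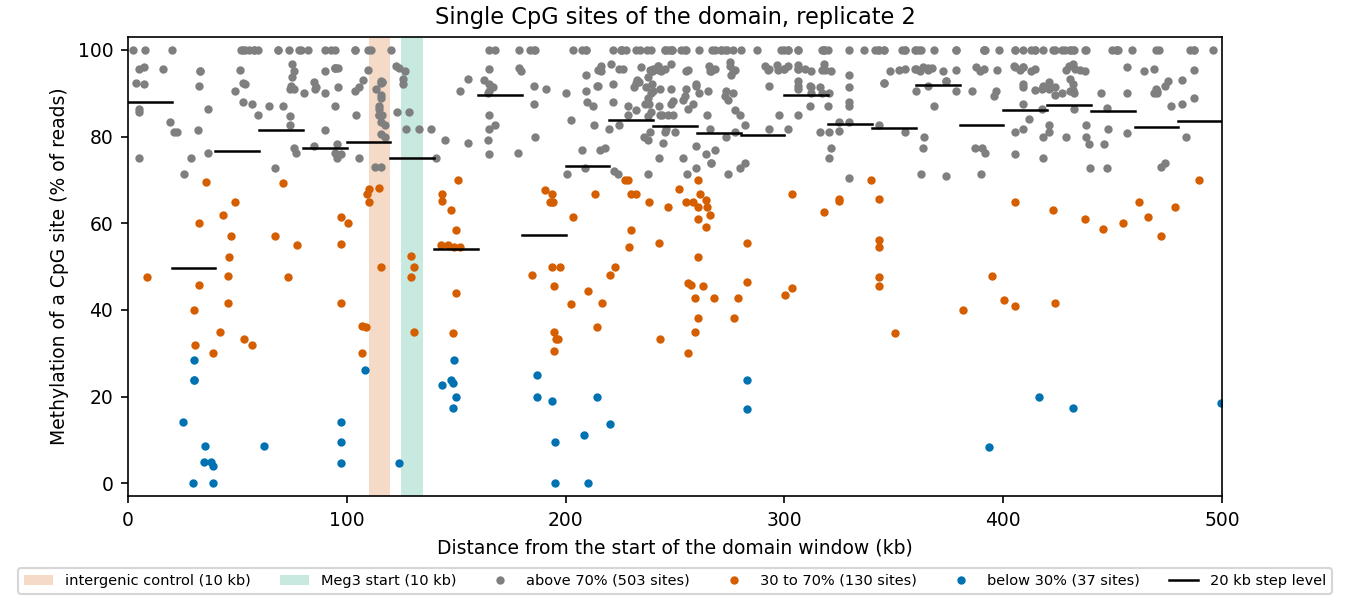
Methylation of each of the 670 listed CpG sites of the domain (percent of reads, vertical axis) against distance from the window's start (kb), coloured by class, with the level of each 20 kb step as a black line and the 10 kb places of the intergenic control and the Meg3 start shaded. Most of the 37 sites below 30% lie in the left part of the domain, and the right part holds mainly sites above 70%.

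The right side of the domain was highly methylated over long stretches. The step chr12:111010001-111030000 was at 91.8% (507 of 552 reads, exact adjusted p = 4.26e-15) with all 24 sites above 70%. The step chr12:110950001-110970000 was at 89.6% (742 of 828 reads, exact adjusted p = 8.41e-15) with 31 of 35 sites above 70%. The run of sites above 70% with the most members in the domain had 32 sites, from 111002156 to 111028344, at 92.8%. Short breaks remained within this side. At 110993198 to 110993398, 5 sites within 201 bases were all partly methylated, at 45.5% to 65.5%. At 110910304 to 110910672, 5 more sites were at 38.1% to 70%.

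Partly methylated CpG sites tended to have partly methylated neighbours in the domain, in its flanks and over all autosomes. Of 45 domain pairs of neighbouring listed CpG within 100 bases whose first site was partly methylated, 24 (53.3%) had a partly methylated second site. The same share was 40.4% in the flanks and 40.3% over all autosomes. Among all such pairs, whatever their first site, the second was partly methylated in 16.4%, 15.6% and 16.1%, in that order. The domain's share rests on 45 pairs, and its difference from the other shares was not tested. Neighbouring sites are covered in part by the same reads, so these pairs are not independent and the shares are a description.

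Averaged over bins of 10 kb with at least 5 CpG sites, 7 of the 45 bins of the domain (15.6%) were at 30 to 70%. This was the case for 16 of 91 bins (17.6%) in the left flank, 21 of 92 (22.8%) in the right flank and 16.1% of autosomal bins, so the count is near the background. The 3 leftmost were neighbours, with 61.0% at chr12:110670001-110680000, 45.7% at chr12:110680001-110690000 and 56.1% at chr12:110690001-110700000. The bins chr12:110790001-110800000 and chr12:110840001-110850000 were at 45.8% and 45.7%. The remaining ones, chr12:110860001-110870000 and chr12:110930001-110940000, were at 68.0% and 61.7%.

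The place of the intergenic control was not near 50% over its 10 kb. Its 23 listed CpG sites were at 82.2% together (462 of 562 reads, 78.8 to 85.3%), against 79.5% in the rest of the domain. The difference of 2.75 points has an interval of -0.48 to 5.98 (Fisher's exact test, p = 0.122, exact adjusted p = 0.245 over 6 tests of 2 places in 3 contexts). Widened to 20 kb, the place was below the rest, with a difference of -2.28 points (exact adjusted p = 0.159), and at 30 reads, on 2 sites, the difference was -5.98. Of all autosomal 10 kb bins, 64.6% differed from the rest of their own 500 kb at an unadjusted p under 0.05. Of the 23 sites, 19 were above 70%, 4 were partly methylated and none was below 30%, and single sites ran from 50% to 100%. The most closely spaced sites, 8 CpG from 110765706 to 110765797, included the lowest one. At 110765709, 14 of 28 reads were methylated, while 26 of 29 were at 110765706, only 3 bases away, and 26 of 28 at 110765728.

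Lower sites lay just to the left of that place. In the adjoining chr12:110755001-110760000, a 5 kb bin picked after its values were seen, 149 of 228 reads at 10 sites were methylated, 65.4% (58.8 to 71.5%). There, 110757097, 110757167, 110758567 and 110758687 had 6 of 20, 8 of 22, 6 of 23 and 9 of 25 reads methylated. Other sites of the same bin were high, such as 27 of 29 reads at 110757500. The whole 20 kb step, chr12:110750001-110770000, was at 78.7% with 9 of 38 sites partly methylated and was not called (exact adjusted p = 0.854).

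At the place of the Meg3 start, a drop in the middle was flanked by high sites. Its 10 listed CpG sites were at 73.0% together (162 of 222 reads, 66.6 to 78.7%), against 79.6% in the rest of the domain. The difference was -6.68 points (interval -12.6 to -0.80, p = 0.0186 by Fisher's exact test), and after adjustment over the 6 tests it was not called (p = 0.0558). Narrowed to 6 kb, the place held 5 CpG sites and the difference was -25.4 points (exact adjusted p = 4.38e-08). Widened to 20 kb, it held 16 sites, and the difference was -4.59 points and not called (exact adjusted p = 0.0787). The call thus depends on the width. What share of autosomal 6 kb bins would differ in the same way is not given here. From left to right, 110775710, 110775805, 110776698, 110776888 and 110778676 had 23 of 25, 28 of 30, 19 of 20, 18 of 22 and 18 of 21 reads methylated. The next 4 sites were all partly methylated: 11 of 21 reads at 110779279, 10 of 21 at 110779284, 10 of 20 at 110780717 and 7 of 20 at 110780927. The last site, 110783187, was back at 18 of 22. The 4 middle sites, which span 1649 bases, were at 46.3% together (35.3 to 57.7%). To the left, chr12:110770001-110775000 held 1 site at 1 of 21 reads, 110773667, among 4 sites at 85.7% to 100%. The 20 kb step around the place, chr12:110770001-110790000, was at 75.1% and was not called (exact adjusted p = 0.111).

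**Figure D4:**
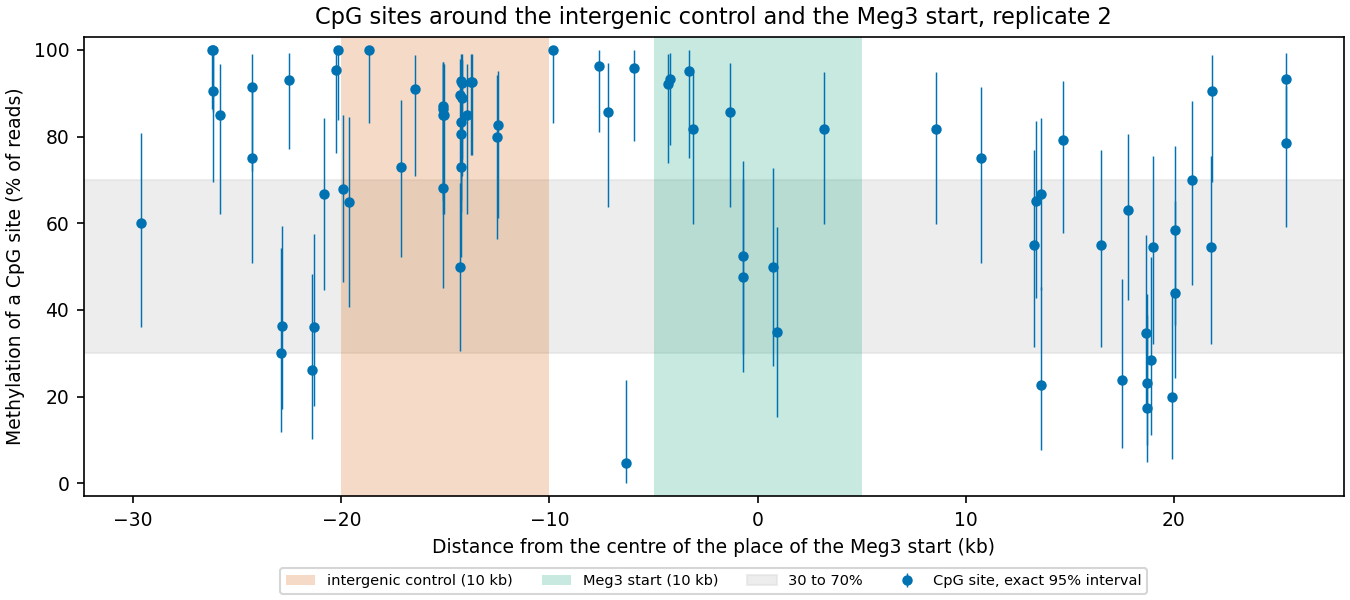
Methylation of single CpG sites (percent of reads, vertical axis) with 95% Clopper-Pearson intervals against distance from the centre of the place of the Meg3 start (kb), with both places and the range of 30 to 70% shaded. The intergenic control holds 19 of 23 sites above 70%, and the 4 sites from 35% to 52.4% in the middle of the Meg3 place stand between high sites.

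Methylation outside CpG is found mainly in neurons and is low per site. In the domain the CHG level was 0.850% (610 of 71746 reads, 0.784 to 0.920%), against 0.783% in the flanks. The difference of 0.07 points has an interval of -0.0071 to 0.142 and was not called (exact adjusted p = 0.106 by Fisher's exact test), while 60.4% of all windows were called. In replicate 1, on 9 domain sites, the difference was -2.65 points (exact unadjusted p = 0.03). The CHH level was 0.949% (240 of 25294 reads, 0.833 to 1.08%), against 0.832% in the flanks, a difference of 0.12 points (interval -0.019 to 0.254, exact adjusted p = 0.125, with 58.5% of windows called). The CHH level was 0.722% in the left and 0.972% in the right flank, so the domain lay between its 2 sides. Against the left flank alone the CHH difference was 0.227 points and was called (exact adjusted p = 0.00386), and against the right flank alone it was -0.0234. Mitochondrial cytosines, taken to be little methylated and so a measure of incomplete conversion, were read as methylated in 0.368% of CHG and CHH reads. The domain stood at 2.31 times that rate in CHG and 2.58 times in CHH.

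CHG levels were highest on the left side of the domain. The blocks of 100 kb were at 1.25%, 1.02%, 0.708%, 0.639% and 0.859% from left to right. Of 25 steps, 4 were called against the autosomal level of 0.784%, 3 higher and 1 lower, with 24.6% of autosomal steps called. The highest was chr12:110690001-110710000 at 1.93% (48 of 2482 reads, 1.43 to 2.56%, exact adjusted p = 2.32e-06). Of its 48 methylated reads, the site 110701483 held 14. The step that holds the intergenic control, chr12:110750001-110770000, followed with 1.49% (47 of 3160 reads, exact adjusted p = 0.00108), and chr12:110730001-110750000 had 1.38% (exact adjusted p = 0.0528). The step chr12:111090001-111110000, at 1.33%, was the other one called higher (exact adjusted p = 0.0393). The lowest steps were chr12:110950001-110970000 at 0.355% (9 of 2534 reads, exact adjusted p = 0.0447, called lower), chr12:110970001-110990000 at 0.418% and chr12:110930001-110950000 at 0.440%, all near the mitochondrial rate. The step of the Meg3 start had 0.682%. At a minimum of 30 reads, chr12:110690001-110710000 was at 4.26% on 3 sites, the step of the intergenic control at 2.68% on 10 and chr12:110950001-110970000 at 0 of 150 reads on 5, too few sites for a test. In 17 of 25 steps the lower bound of the interval was above the mitochondrial rate.

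CHH sites were listed only from 30 reads on and were fewer, so 14 of 25 steps had the 20 sites needed for a test. Of these, 3 were called, with 26.9% of autosomal steps called. The highest was chr12:110990001-111010000 at 2.08% (30 of 1445 reads, exact adjusted p = 0.000647), which holds the run of partly methylated CpG at 110993198. Of its 30 methylated reads, 110993234 held 12 and 110993222 held 6, and the step without these sites was not tested. The next highest steps were chr12:110830001-110850000 at 1.76% and chr12:111090001-111110000 at 1.08%. The highly CpG-methylated step chr12:110810001-110830000 had 0 methylated of 639 CHH reads (upper bound 0.576%, exact adjusted p = 0.0292), and chr12:110870001-110890000 had 0.387% (exact adjusted p = 0.0288). Between these in level was chr12:110930001-110950000, with 2 of 895 CHH reads methylated (0.223%, exact adjusted p = 0.0859). Several steps on the left side were higher but had too few sites for a test. They were chr12:110650001-110670000 at 4.80% with 9 sites, chr12:110730001-110750000 at 5.83% with 4, chr12:110750001-110770000 at 3.19% with 19 and chr12:110790001-110810000 at 3.31% with 11. Single sites held most of their methylated reads. In the first, 110652952 and 110658944 held 6 each of 13. In the others, 110732230 held 5 of 7, 110757312 held 16 of 20 and 110797766 held 9 of 11.

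**Figure D5:**
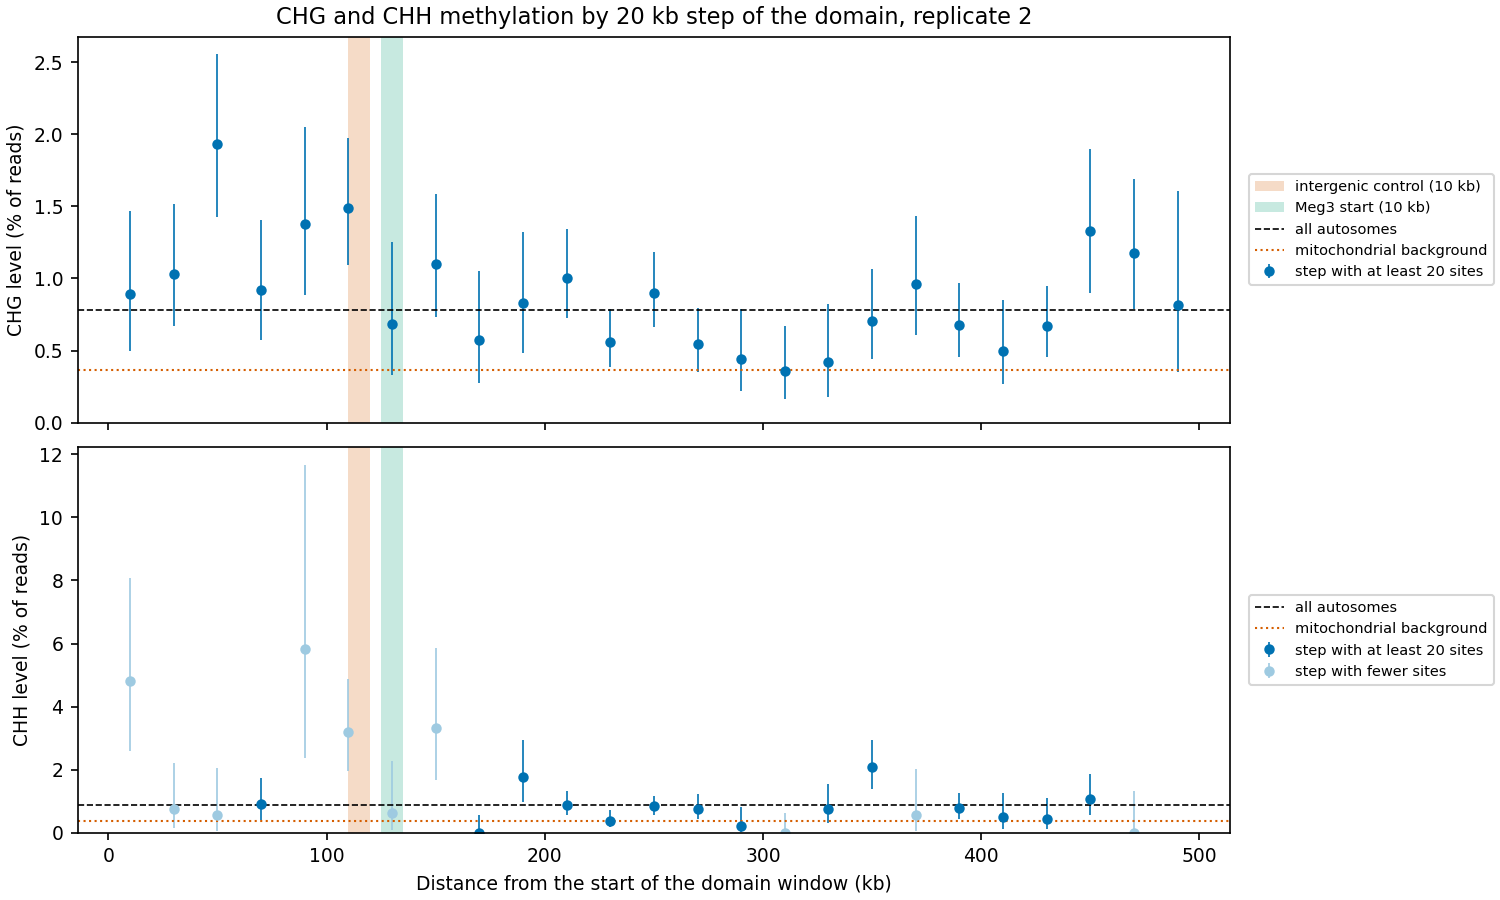
CHG (upper panel) and CHH (lower panel) methylation of the domain's 20 kb steps (percent of reads, vertical axes, on different scales) against distance from the window's start (kb), with 95% Clopper-Pearson intervals, the autosomal level and the mitochondrial rate of 0.368%. CHG is highest between 1.38% and 1.93% left of the Meg3 start, and pale CHH points are steps with fewer than 20 sites.

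Of the 6 tests of places, the one called was CHG at the intergenic control. CHG was 1.84% there (22 of 1197 reads at 53 sites), against 0.833% in the rest of the domain. The interval of the difference was 0.24 to 1.77 points (Fisher's exact test, adjusted p = 0.0067 over the 6 tests). Of the 22 methylated reads at the place, 110764909 held 6 and 110765779 held 4. The difference without these sites was not tested. With the place widened to 20 kb the difference was 0.401 points and no longer called (exact adjusted p = 0.0559). Of all autosomal 10 kb bins, 24.9% differed in CHG at an unadjusted p under 0.05. At the Meg3 start CHG was 1.10% (9 of 818 reads), against 0.847% in the rest (exact adjusted p = 0.657). CHH was 0.465% (1 of 215 reads) at the intergenic control, against 0.953% in the rest (exact adjusted p = 0.872), and 31.5% of autosomal bins differed in CHH at an unadjusted p under 0.05. CHH was 0.897% (2 of 223 reads) at the Meg3 start, against 0.949% in the rest (exact adjusted p = 1). With 7 CHH sites at each place, differences of this size were not detectable at this depth. Widened to 20 kb, the intergenic control was 1.89 points above the rest in CHH on 22 sites (exact adjusted p = 0.000111). That call rests on 1 site, 110757312, which held 16 of the 20 methylated reads. Without it the widened place was at 0.589% (4 of 679 reads), against 0.895% in the rest. Whether the CHG levels of the 2 places differ from each other was not tested.

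The CHG and CHH signal rested on few sites. No methylated read was seen at 88.7% of CHG and 86.6% of CHH sites of the domain. A one-sided exact binomial test against the mitochondrial rate, at an adjusted p under 0.01 over all nuclear sites, called 48 of 3038 CHG sites (1.58%), against 1.43% in the left flank, 1.67% in the right flank and 1.46% over autosomes. It called 22 of 778 CHH sites (2.83%), against 2.41% in the left flank, 3.28% in the right flank and 2.75% over autosomes. Both counts are near the background. The called sites had a median level of 15% in CHG and 14.5% in CHH, and they held 34.6% of the methylated CHG reads and 52.5% of the methylated CHH reads of the domain. Without them the domain was at 0.566% in CHG and 0.464% in CHH.

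The most methylated CHG site was 110701483, with 14 of 23 reads methylated (60.9%, exact adjusted p = 1.06e-24). A listed CpG 4 bases away was methylated in 21 of 21 reads. The next CHG sites were 111102470 with 9 of 30 reads, 111122153 with 8 of 44, 110755746 with 6 of 20, and 110688751 and 110764909 with 6 of 24 each. The last of these lies inside the place of the intergenic control, 6 bases from a CpG with 15 of 22 reads methylated. The site 110688751 lies between a CpG with 1 of 25 and a CpG with 6 of 20 reads methylated, at the edge of the first low CpG step. Called CHG sites thus stood beside high as well as low CpG.

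Among CHH sites 110757312 led with 16 of 38 reads methylated (42.1%, exact adjusted p = 4.31e-26). It lies among the lower CpG sites to the left of the intergenic control, and the nearest listed CpG, 145 bases away, had 8 of 22 reads methylated. It was followed by 110993234 with 12 of 33 reads, inside the run of 5 partly methylated CpG, by 110797766 with 9 of 30, in the low step right of the Meg3 start, and by 110859180 with 7 of 33. The sites 110652952 and 110658944 had 6 of 30 reads each. A listed CpG lay within 100 bases of 30 of the 48 called CHG sites (62.5%) and of 59.0% of all listed CHG sites of the domain, and of 16 of the 22 called CHH sites (72.7%) and 69.7% of all listed CHH sites.

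Over the steps of the domain, CHG ran in the same direction as CHH (Spearman's rho 0.72 over 14 steps) and opposite to CpG (rho -0.44 over 25 steps), and CHH ran opposite to CpG (rho -0.49 over 14 steps). Pearson's correlation for the same pairs, in that order, was 0.41, -0.27 and -0.57. These values describe neighbouring steps of 1 library, which share depth and base composition. The step of the intergenic control had a CpG level close to that of the autosomes and the second highest CHG level of the domain.

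The other library could check little of this. It listed 19 cytosines in the domain, 9 CHG and 10 CHH, of 172020 in all, and no CpG. Its CHG sites had 0 of 199 reads methylated (upper bound 1.84%), against 9 of 340 (2.65%) at 15 flank sites (Fisher's exact test, unadjusted p = 0.03). Its CHH sites had 4 of 222 reads methylated, 1.80% (0.493 to 4.55%), against 4 of 940 (0.426%) at 37 flank sites (Fisher's exact test, unadjusted p = 0.0478), and all 4 reads in the domain were at 1 site. In replicate 2 neither difference was called, and the CHG difference had the opposite sign. The libraries shared 3 sites in the domain, all CHG, with 0 of 60 reads methylated in replicate 1 and 0 of 62 in replicate 2. Over the genome 0.307% of 108064 shared sites differed by Fisher's exact test at an adjusted p under 0.05, and none of the 3 did.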

How the data were processed

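Genomic DNA of the dentate gyrus was sequenced after bisulfite conversion in 2 libraries, replicates 1 and 2 by the labels. Reads were handled with Bismark 0.7.5 on build mm9, per the submitters' processing notes. How reads were trimmed, deduplicated or filtered for conversion is not given in the sources used here. For each library and context, the authors deposited read counts per cytosine (methylated, unmethylated and their total) and the percent methylated, for 1 strand class named OT, so the other strand was not analysed. The lowest deposited total was 20 reads, and 30 in the CHH table of replicate 2. Median depth in replicate 2 was 23 reads in CpG and CHG and 32 in CHH, and totals were 77868153, 451032782 and 262299782 reads in CpG, CHG and CHH.

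Sites of the domain window above 100 reads were to be left out. Sums of reads were compared by Fisher's exact or exact binomial tests (SciPy 1.17.1), adjusted by Benjamini-Hochberg over all autosomal windows or steps, or over the 6 tests of places. Steps needed 5 CpG, 20 CHG or 20 CHH sites. The tests were tried on simulated data. All unchanged steps, windows or sites of a test had the same level there, so variation between regions was not covered. Named were the 3 highest and 3 lowest steps per context, bins at 30 to 70%, the CpG sites of the places and the 5 leading CHG and CHH sites, with ties; runs of sites and other single sites were picked after their values were seen. The members, places and lists were chosen with earlier results of these data known. Alternatives changed depth limits, step sizes, flanks, class limits and place sizes. Promoters came from RefSeq (GRCm38.p6).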

Additional observations from a re-analysis of the deposited data

Results flagged for a closer look

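The main comparisons between regions use replicate 2 only. In replicate 1, the CHH level in the domain was 1.80% (4 of 222 reads at 10 sites). This level was above the 1.35% that 3 reads of 222, the floor used for a count of 0, would make. Its 95% Clopper-Pearson interval, 0.493 to 4.55%, reaches below that floor. All 4 methylated reads were at 1 site, 110914800, with 4 of 20 reads methylated. In the flanks that library had 0.426% (4 of 940 reads at 37 sites).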

How the results depend on the processing

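Of 86 alternatives to the domain's main values, 19 lifted the upper depth limit, which no site of the domain reached, or repeat the value by construction. Of the other 67, 25 with a p kept direction and side of the threshold, 17 without a p stayed close to the reported value, and 25 changed. These 67 still include settings that removed no site of the domain. They are the minimum of 30 reads in CHH, where listing starts at 30 reads, and the upper limit of 50 reads. Their agreement therefore says nothing on how stable the values are. Counts were compared as numbers, not as shares of those tested. So 9 of 12 called CpG steps at 40 kb stood as close to 13 of 25. Likewise 4 of 46 called CHG steps at 10 kb stood as close to 4 of 25. The domain's CpG excess over its flanks kept its direction at every depth limit, flank and weighting tried in replicate 2, but was 11.3 points at a minimum of 30 reads, where only 49 CpG sites were left. The CHH difference was 0.227 points against the left flank alone (exact adjusted p = 0.00386) and -0.0234 against the right flank alone. With replicate 1 in place of replicate 2, the CHG difference was -2.65 instead of 0.0676 points, so its sign changed. The CHH difference was 1.38 instead of 0.117 points. For CpG the exchange gave no value. Called CpG steps numbered 32 of 45 tested with 10 kb steps and 2 of 3 at 30 reads, called CHG steps 0 of 4 at 30 reads, and called CHH steps 5 of 12 with 40 kb steps. Partly methylated sites numbered 60 of 670 at limits of 40 to 60% and 6 of 49 at 30 reads. Partly methylated bins numbered 4 of 45 at 40 to 60%, 0 of 1 at 30 reads, 13 of 66 with 5 kb bins and 4 of 31 with at least 10 sites. Against a background of 1%, 19 of 3038 CHG and 12 of 778 CHH sites were called, and at 30 reads 10 of 242 CHG sites.

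With 20 kb places, the intergenic control minus the rest was -2.28 points in CpG, 0.401 in CHG (exact adjusted p = 0.0559) and 1.89 in CHH (exact adjusted p = 0.000111), and the Meg3 start was -0.172 in CHG. With 6 kb places the Meg3 start was -25.4 points in CpG (5 sites, exact adjusted p = 4.38e-08), and it had no CHH site. At 30 reads the intergenic control was -5.98 in CpG, and the Meg3 start was 5.73 in CpG and -1.10 in CHG, on 1 to 3 sites each. Higher minimums and smaller places leave fewer sites by construction; beyond that the cause was not tested. No paired analysis was possible because there is 1 group of samples. Only 1 strand class and sites of at least 20 reads enter, and the main values use 1 library. Differences between mice and at thinly covered sites are therefore not measured.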
